A study of Homo sapiens with 6 samples.

Results

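The 40 genes described here code for the proteins that license replication origins, unwind DNA, copy it, supply its nucleotides and time the passage from G1 into S phase. They were chosen by gene symbol from the 60671 genes of the deposited expression table. Each of the 40 symbols was found, and each passed the filter on low values, among 15163 genes tested. HaCaT, an established line of immortalised human keratinocytes labelled wild type, was held for 24 h in high-glucose DMEM lacking serum, to which 160 ng/mL of IFN-beta had been added (3 libraries). Control cells spent the same 24 h in that medium with no interferon (3 libraries). All 6 libraries therefore come from 1 cell line deprived of serum for the same time, after growth in serum to about 70 to 80% confluence per the labels. Whether the replicates are separate cultures is not stated in the labels, and the p-values below therefore reflect library-to-library spread that may be only technical.

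Replication begins in G1, when the origin recognition complex, CDC6 and CDT1 load the ring-shaped MCM helicase onto origins. At the start of S phase CDC45 and the GINS complex join the ring to form the active CMG helicase, and the polymerases, the PCNA clamp and its RFC loader follow. Many of these genes are classical targets of the E2F factors, which are released when cyclin-dependent kinases act on the RB protein. IFN-beta is a type I interferon, and slowing of the cell cycle is one of the effects for which this cytokine family is known in epithelial cells.

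Depth recovered from the steps of the FPKM values (fragments scaled to gene length and library depth) was 25832158 to 30594527 reads per library, and no member had fewer than 272 reads in any library. The keratinocyte markers KRT5, KRT14, TP63, DSG3, ITGB4 and COL17A1 were all present and summed to 2906 to 2935 FPKM in IFN-beta libraries and 2875 to 3189 FPKM in control libraries. Within these sums single markers moved in opposite directions. Mean KRT5 was 965 FPKM with IFN-beta against 1374 in controls. TP63 (174 against 131), ITGB4 (134 against 116) and COL17A1 (489 against 340) were higher. KRT14 (1099 against 1033) and DSG3 (57.7 against 57.6) differed little. Markers of fibroblasts, melanocytes, leukocytes and endothelium, 6 genes each, summed to less than 5 FPKM per library. Their sums were 2.55 to 3.27, 3.34 to 3.91, 3.38 to 4.05 and 2.12 to 2.22 FPKM in IFN-beta libraries, against 1.73 to 2.47, 4.14 to 4.69, 2.82 to 3.99 and 0.696 to 0.964 FPKM in control libraries. DCN (fibroblasts), MLANA, TYR and SOX10 (melanocytes), MS4A1 and LYZ (leukocytes) and TEK and CLDN5 (endothelium) had no reads in any library. The interferon response genes MX1, ISG15, IFIT1 and IFI6 summed to 3030 to 3161 FPKM with IFN-beta and 32.9 to 38.3 FPKM without it. Correlations of log2(FPKM + 0.5) were 0.9938 to 0.9951 within groups and 0.9732 to 0.9759 between them. Control replicate 3 stood further from the other control libraries than those did from each other: the chi-square of their reads per degree of freedom was 9.43 and 6.11, against 3.79 for control replicates 1 and 2 and 2.87 to 3.75 among IFN-beta libraries. This library, also the shallowest, held the highest control value of 22 of the 40 members, or 55%, against 31.1% of all tested genes. Counts are therefore also given without it.

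Promoters of 6 members are shown because they carry the letters of an E2F site and because 3 of these genes rose with IFN-beta (CDC25A, CDT1 and CDC6) while the other 3 fell (MCM6, GINS2 and TYMS). Each window runs from 250 bases before the annotated RefSeq start to base 30 after it, 280 bases in all, on the gene's own strand (build GRCh38.p14, coordinates from RefSeq). Capitals mark matches to TTTCCCGC, TTTCGCGC, TTTGCCGC or TTTGGCGC on either strand.
CDC25A, chr3:48188388-48188667, minus strand: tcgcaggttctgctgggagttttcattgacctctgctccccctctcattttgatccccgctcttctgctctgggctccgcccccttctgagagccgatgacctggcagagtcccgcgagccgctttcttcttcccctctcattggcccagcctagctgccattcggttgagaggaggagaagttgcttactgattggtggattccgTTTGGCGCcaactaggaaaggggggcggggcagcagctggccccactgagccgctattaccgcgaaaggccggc
CDT1, chr16:88803539-88803818, plus strand: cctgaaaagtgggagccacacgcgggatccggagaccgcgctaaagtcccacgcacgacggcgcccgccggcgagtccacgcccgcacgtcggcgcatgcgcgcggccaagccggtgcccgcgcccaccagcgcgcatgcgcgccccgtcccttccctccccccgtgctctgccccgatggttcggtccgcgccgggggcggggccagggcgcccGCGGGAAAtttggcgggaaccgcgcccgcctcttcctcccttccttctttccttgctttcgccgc
CDC6, chr17:40287629-40287908, plus strand: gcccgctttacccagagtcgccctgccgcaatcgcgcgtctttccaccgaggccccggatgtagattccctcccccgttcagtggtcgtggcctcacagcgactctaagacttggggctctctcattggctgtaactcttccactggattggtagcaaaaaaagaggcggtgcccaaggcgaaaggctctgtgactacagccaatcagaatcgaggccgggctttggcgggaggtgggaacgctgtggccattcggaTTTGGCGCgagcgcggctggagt
MCM6, chr2:135876414-135876693, minus strand: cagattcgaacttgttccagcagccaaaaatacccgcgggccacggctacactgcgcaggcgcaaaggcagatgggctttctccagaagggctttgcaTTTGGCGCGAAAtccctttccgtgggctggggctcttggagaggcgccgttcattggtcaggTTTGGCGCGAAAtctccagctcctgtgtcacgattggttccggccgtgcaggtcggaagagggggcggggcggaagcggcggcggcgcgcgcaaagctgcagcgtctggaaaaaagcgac
GINS2, chr16:85688925-85689204, minus strand: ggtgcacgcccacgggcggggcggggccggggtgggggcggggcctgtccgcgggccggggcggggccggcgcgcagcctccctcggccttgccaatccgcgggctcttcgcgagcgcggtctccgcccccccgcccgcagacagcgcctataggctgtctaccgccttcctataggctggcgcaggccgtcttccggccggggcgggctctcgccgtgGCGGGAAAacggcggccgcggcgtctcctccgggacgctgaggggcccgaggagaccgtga
TYMS, chr18:657403-657682, plus strand: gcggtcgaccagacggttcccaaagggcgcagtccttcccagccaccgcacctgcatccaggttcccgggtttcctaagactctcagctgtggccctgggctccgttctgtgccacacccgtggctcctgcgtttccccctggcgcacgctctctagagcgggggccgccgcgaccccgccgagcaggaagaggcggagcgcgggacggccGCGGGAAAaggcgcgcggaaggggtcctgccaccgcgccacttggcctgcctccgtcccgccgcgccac

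In the CDC25A, CDT1, GINS2 and TYMS windows the single match begins 44, 35, 31 and 39 bases before the start. The CDC6 match begins at base 8 after the start. The MCM6 window holds 2 runs of TTTGGCGCGAAA, and each counts as 2 overlapping matches, TTTGGCGC on the printed strand and TTTCGCGC on the other. Windows of 300 bases, reaching base 50 after the start, were found for 34 of the 40 members. MCM4, MCM5, GINS4, RPA2, RPA3 and CCNE2 had none in the table used. An E2F match was present for 20 of these 34 genes (58.8%) and in 21 of their 43 windows (48.8%), against 1164 of 35116 windows of all genes (3.31%). By call it was found for 4 of 8 members that rose, 5 of 11 that fell and 11 of 15 that did not pass, so it was present among genes of all 3 kinds. The letters CCAAT, on either strand, were present for 21 of 34 members (61.8%) and in 27 of their 43 windows (62.8%), against 34.6% of all windows. The core of an interferon-stimulated response element, GAAA, any 2 bases and GAAA again on either strand, was in none of the member windows and in 3.57% of all windows. A match is a description of the letters and not a binding site.

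With IFN-beta the 40 genes did not move one way. Of the 40, 9 rose (22.5%, against 22.5% of all tested genes) and 14 fell (35%, against 19.9% of all tested genes), while 17 did not pass (limma on log2(FPKM + 0.5), Benjamini-Hochberg adjusted p of 0.05 over all tested genes, 42.4% of which were called in either direction). Without control replicate 3 the counts were 10 and 14. Of the members' calls 39.1% were rises, against 53.2% of all calls. When each library was rescaled to the same sum these shares were 45.8% and 63.2%, and after quantile normalization 36.4% and 41.3%. IFN-beta and control libraries did not overlap in 28 members, 12 with higher values under IFN-beta and 16 with lower (54%, 28.6% and 25.4% of all tested genes).

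The changes were small. The members' median log2 change, IFN-beta minus control, was 0.02, against 0.01 for all tested genes, and their range ran from -0.62 in GINS4 to 0.44 in CDC25A. None of the 40 reached a 2-fold change, which 3.34% of all tested genes did. The median was 0.31 among the members that rose, against 0.40 among all genes that rose, and -0.26 among those that fell, against -0.31. Summed over the 40 genes, expression was 3441, 3461 and 3499 FPKM in IFN-beta libraries and 3468, 3492 and 3635 FPKM in control libraries, which overlap. Replicates lay close together, with a median coefficient of variation of 2.4% in IFN-beta libraries and 3.89% in control libraries, against 5.14% and 6.84% over all tested genes. All members averaged at least 7.69 FPKM in either group, while genes were tested from a mean of 0.5 FPKM. The spread and the counts of calls were not compared with genes of like level. In bulk RNA, fewer cells in S phase and less RNA of a gene per cell cannot be told apart.

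**Figure D1:**
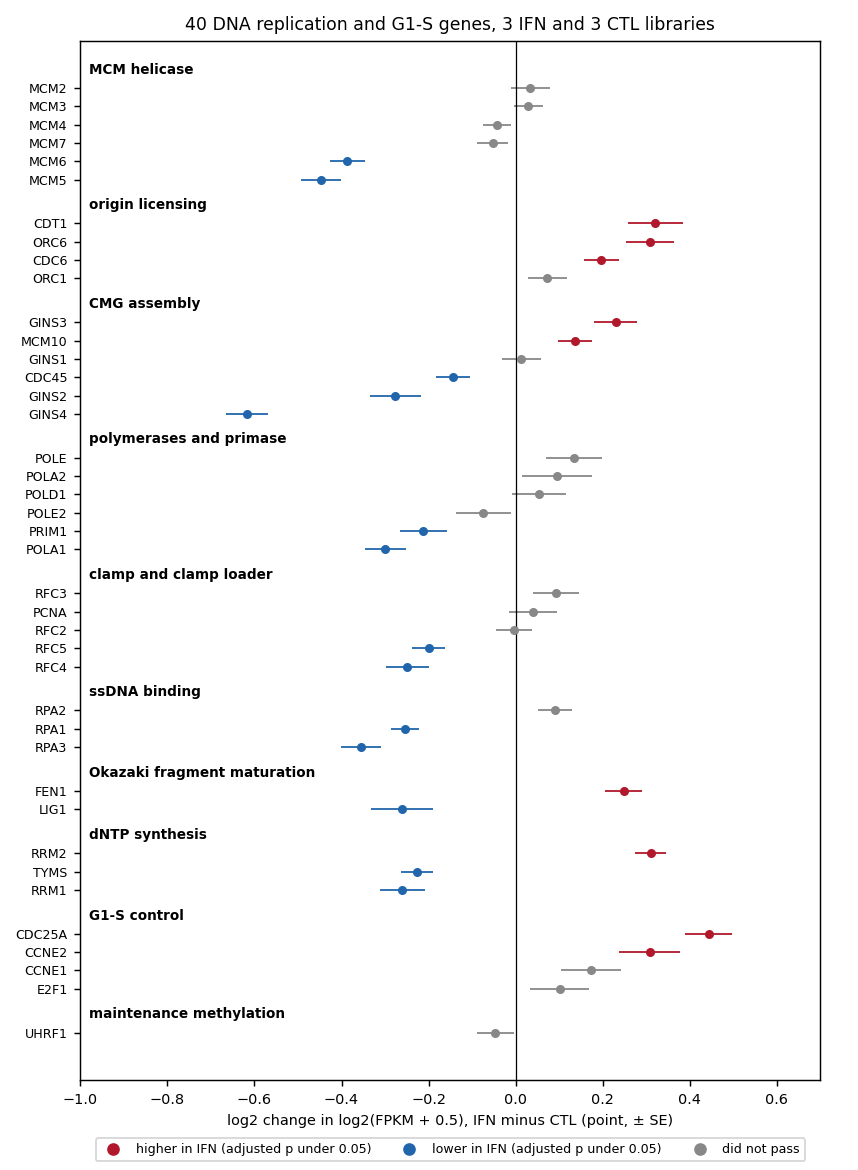
Log2 change of each of the 40 genes, IFN-beta minus control, on the log2(FPKM + 0.5) scale (horizontal axis), grouped by role; points are limma estimates, bars ± SE, from 3 libraries a group, with rises in red, falls in blue and genes that did not pass in grey. All points lie between -0.62 (GINS4) and 0.44 (CDC25A), and red and blue points occur together within the CMG, Okazaki fragment and dNTP groups.

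The genes that time S phase entry and license origins held 5 of the 9 rises and no fall. Rises made up 50% of the 4 G1-S control genes and 75% of the 4 licensing genes, against 22.5% of all tested genes. CDC25A (chromosome 3, 48157146 to 48188417, minus strand) codes for the phosphatase that removes inhibitory phosphate from CDK2. It had 21.8, 22.3 and 23.9 FPKM in IFN-beta libraries and 16.2, 16.2 and 17.2 FPKM in control libraries. Every IFN-beta library lay above every control library, and the gene rose by 0.44 ± 0.054 on the log2 scale (SE, limma adjusted p = 2.49e-04), the largest rise among the 40. CCNE2 codes for cyclin E2, a partner of CDK2, and had 24.6, 25.3 and 25.2 FPKM with IFN-beta and 18.7, 19.3 and 22.6 FPKM without it. The groups did not overlap, with control replicate 3 the highest of its group, and the log2 change was 0.31 ± 0.070 (limma adjusted p = 0.00706). Of its annotated exonic bases 37.1% are shared with genes on the other strand, INTS8 among them, and INTS8 was lower with IFN-beta (58.9 ± 1.13 against 67.6 ± 3.31 FPKM, SD, n = 3 each).

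CCNE1, the gene of cyclin E1, had 9.58, 10.2 and 8.96 FPKM with IFN-beta and 8.23, 8.82 and 8.29 FPKM in control libraries. These groups did not overlap either, yet the log2 change of 0.17 ± 0.069 did not pass (limma adjusted p = 0.0732). After rescaling to the same sum per library it did (0.22, limma adjusted p = 0.0361). E2F1, the transcription factor that drives many of these genes, stood at 12.0, 12.6 and 12.6 FPKM with IFN-beta and 12.3, 11.7 and 10.5 FPKM without it. Its groups overlapped and it did not pass (log2 change 0.10 ± 0.068, limma adjusted p = 0.268). Together the 4 genes summed to 69.7 ± 1.45 FPKM with IFN-beta and 56.7 ± 1.66 FPKM in controls (SD, n = 3 each), a ratio of 1.23.

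Among the 4 licensing genes 3 rose. CDT1, the factor that brings the MCM ring to the origin, had 51.1, 54.1 and 54.9 FPKM in IFN-beta libraries and 46.9, 41.9 and 39.4 FPKM in control libraries. The lowest IFN-beta value lay above the highest control value (log2 change 0.32 ± 0.064, limma adjusted p = 0.00372). ORC6, a subunit of the origin recognition complex, had 65.0, 66.1 and 73.5 FPKM with IFN-beta and 52.4, 56.5 and 55.8 FPKM without. All its IFN-beta values lay above all its control values (log2 change 0.31 ± 0.055, limma adjusted p = 0.00207). CDC6, the ATPase that works with the recognition complex in loading, had 192, 201 and 199 FPKM with IFN-beta and 169, 167 and 180 FPKM without. Here too the groups did not overlap, with a log2 change of 0.20 ± 0.040 (limma adjusted p = 0.00439).

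ORC1, the largest subunit of the recognition complex, was the exception, at 20.3, 19.6 and 19.6 FPKM with IFN-beta and 18.9, 18.8 and 18.7 FPKM without it. Its libraries did not overlap, but the log2 change of 0.07 ± 0.045 did not pass (limma adjusted p = 0.224). With all libraries included, no recognition complex subunit outside the 40 rose. ORC2 and ORC5 fell (log2 changes -0.16 and -0.20, limma adjusted p = 0.0155 and 0.0227), though both calls were lost under some alternatives. ORC3 and ORC4 did not pass (log2 changes 0.03 and 0.15). Without control replicate 3 both rose (log2 changes 0.11 and 0.23, limma adjusted p = 0.0466 and 0.00801). Geminin, coded by GMNN, binds CDT1 and blocks loading. The ratio of CDT1 to GMNN in FPKM was 0.551, 0.599 and 0.578 with IFN-beta and 0.568, 0.490 and 0.395 without, so on that measure the groups overlapped. The CDT1 and CDC6 promoters, printed above, both hold an E2F match.

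**Figure D2:**
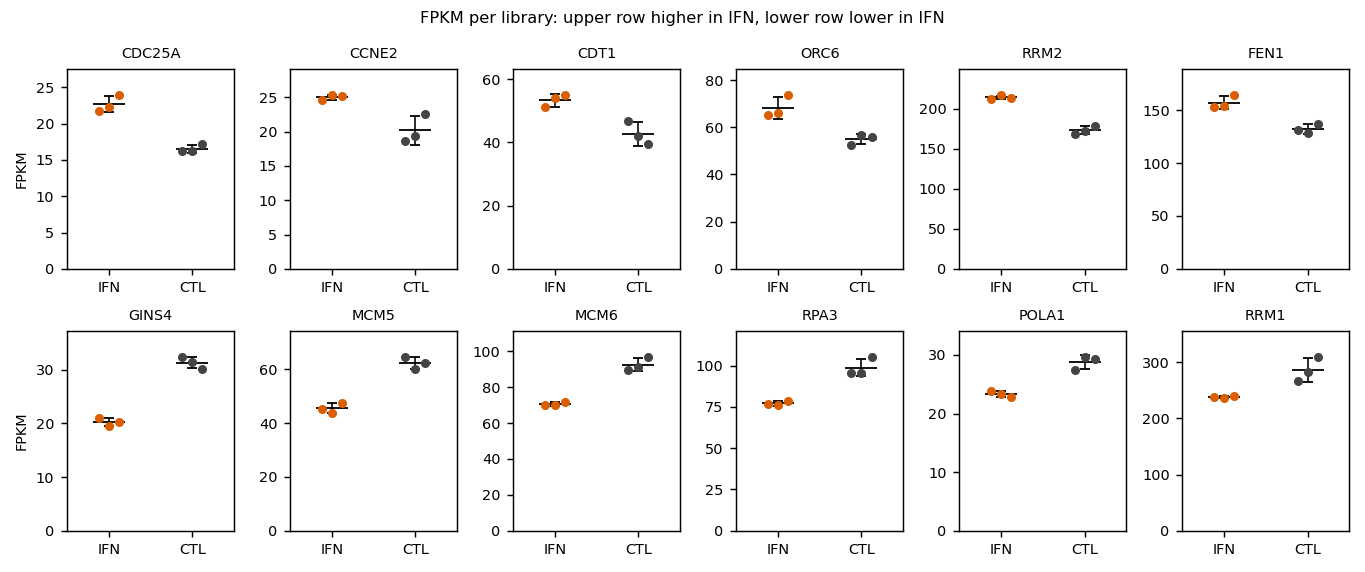
FPKM in each library (points) with the group mean and SD (bars), IFN-beta left and control right, for 6 genes that rose (upper row) and 6 that fell (lower row). No IFN-beta library overlaps a control library in any of the 12 panels, and RRM1 shows the wide control spread (286 ± 21.4 FPKM) beside the narrow IFN-beta one (238 ± 1.90 FPKM).

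The helicase ring itself showed the opposite sign in a pair of its subunits (33.3% of them fell, against 19.9% of all tested genes). MCM5 (chromosome 22, 35400134 to 35425431, plus strand) had 45.2, 43.8 and 47.5 FPKM with IFN-beta and 64.4, 60.1 and 62.1 FPKM in controls. All IFN-beta libraries lay below all control libraries, and the gene fell by 0.45 on the log2 scale (SE 0.046, limma adjusted p = 9.09e-05). MCM6 had 70.0, 70.0 and 71.7 FPKM with IFN-beta and 89.7, 91.1 and 96.6 FPKM in controls. Its groups were as clearly apart, and it fell by 0.39 (SE 0.040, limma adjusted p = 9.63e-05). The 4 other subunits of the ring did not pass, with log2 changes from -0.05 in MCM7 to 0.03 in MCM2 and MCM3. Among these MCM4 had the highest level, 328, 328 and 329 FPKM with IFN-beta and 334, 338 and 343 FPKM without. Its groups did not overlap, but the difference was small (log2 change -0.04 ± 0.032, limma adjusted p = 0.319) and its sign was positive after rescaling to the same sum. The signs of MCM2 and MCM3 were negative after quantile normalization.

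Because the ring holds its subunits in equal numbers, ratios between them within a library are of interest, and any factor common to a library cancels in them. These ratios were chosen after the values were seen and were not tested. MCM5 stood to MCM7 at 0.210, 0.204 and 0.210 in IFN-beta libraries and at 0.282, 0.269 and 0.271 in control libraries. MCM6 stood to MCM7 at 0.325, 0.326 and 0.316 with IFN-beta and at 0.392, 0.408 and 0.421 without. Both ratios were lower in every IFN-beta library than in any control library.

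CMG assembly genes went both ways. GINS4 had the largest change of all 40 genes, with 21.0, 19.5 and 20.2 FPKM in IFN-beta libraries and 32.3, 31.4 and 30.2 FPKM in control libraries. The highest IFN-beta value lay far below the lowest control value, and the gene fell by 0.62 on the log2 scale (SE 0.049, limma adjusted p = 1.89e-05), to 0.65 of the control level. GINS2, another subunit of the same complex, had 51.3, 48.2 and 50.3 FPKM with IFN-beta and 57.7, 57.9 and 66.4 FPKM without. It fell by 0.28 (SE 0.059, limma adjusted p = 0.00524), with no overlap and with control replicate 3 the highest. GINS3, in contrast, had 37.4, 34.7 and 34.5 FPKM with IFN-beta and 29.6, 29.7 and 31.3 FPKM without it, again with no overlap. It rose by 0.23 ± 0.049 (limma adjusted p = 0.00500). GINS1, the remaining subunit, had 84.3, 82.8 and 84.4 FPKM with IFN-beta, inside the control values of 82.5, 79.2 and 87.9 FPKM, and did not pass (log2 change 0.01 ± 0.044, limma adjusted p = 0.839; negative after quantile normalization).

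The ratio of GINS3 to GINS4, chosen after the values were seen as the subunit that rose against the one that fell most, restates these calls within each library. It was 1.78, 1.78 and 1.71 with IFN-beta and 0.919, 0.945 and 1.04 without, a mean ratio 1.82 times as high with IFN-beta. MCM10, which helps to activate the helicase, averaged 62.3 ± 1.11 FPKM with IFN-beta and 56.6 ± 1.60 FPKM in controls (SD, n = 3 each), with no overlap (log2 change 0.14 ± 0.039, limma adjusted p = 0.02). CDC45, part of the active helicase, averaged 51.9 ± 1.34 FPKM with IFN-beta and 57.5 ± 1.04 FPKM in controls, also with no overlap, and fell by 0.14 (SE 0.039, limma adjusted p = 0.0153). Both of these calls depended on the processing. MCM10 did not pass after quantile normalization (limma adjusted p = 0.0565), without the variance trend (0.0552), with the replicate number as a block (0.0511) or without IFN-beta replicate 1 (0.0621) or 3 (0.0727). CDC45 did not pass after rescaling to the same sum (limma adjusted p = 0.0787) or without IFN-beta replicate 3 (0.0615).

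**Figure D3:**
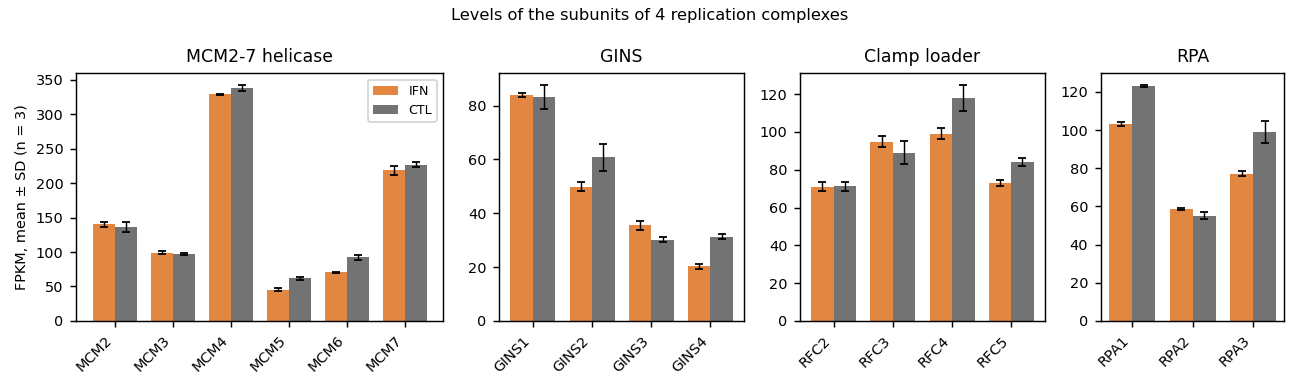
Mean FPKM (vertical axes, starting at 0; bars ± SD, n = 3) of the subunits of the MCM ring, GINS, the RFC clamp loader and RPA, IFN-beta left of control in each pair. Within each complex some subunits are lower with IFN-beta (MCM5, MCM6, GINS2, GINS4, RFC4, RFC5, RPA1, RPA3) beside others whose group means lie close together or, in GINS3, higher.

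In the polymerase group 2 of 6 genes fell (33.3%, against 19.9% of all tested genes) and none rose. POLA1, the catalytic subunit of polymerase alpha, had 23.8, 23.3 and 22.8 FPKM with IFN-beta and 27.5, 29.6 and 29.3 FPKM in controls. It was lower in every IFN-beta library and fell by 0.30 (SE 0.047, limma adjusted p = 0.00112). PRIM1 codes for the catalytic subunit of the primase that works with it, and had 34.6, 34.2 and 33.6 FPKM with IFN-beta and 40.4, 36.7 and 41.9 FPKM in controls. The groups did not overlap, and it fell by 0.21 (SE 0.054, limma adjusted p = 0.0118). PRIM1 shares 16.2% of its exonic bases on the same strand with other genes, among them NACA, which was lower too (190 ± 9.49 against 224 ± 12.0 FPKM, SD, n = 3 each), and the part of shared reads in the PRIM1 value was not tested.

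POLE, the catalytic subunit of polymerase epsilon, had 43.2, 44.7 and 44.9 FPKM with IFN-beta and 44.7, 39.2 and 37.4 FPKM in controls. Control replicate 1 lay within the IFN-beta range, and the gene did not pass (log2 change 0.13 ± 0.064, limma adjusted p = 0.122). Without that library it did, at 0.21 (limma adjusted p = 0.00732). POLA2, POLD1 and POLE2, an accessory subunit of polymerase alpha and the catalytic and accessory subunits of polymerases delta and epsilon, changed by 0.09, 0.05 and -0.07 on the log2 scale and did not pass. Their groups overlapped.

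Of the sliding clamp and its loader, 2 of 5 genes fell (40%, against 19.9% of all tested genes). PCNA, the clamp, was the most abundant of the 40 genes in FPKM, at 364, 368 and 380 with IFN-beta and 335, 355 and 393 in controls. All IFN-beta values lay inside the control range, and the log2 change of 0.04 ± 0.056 did not pass (limma adjusted p = 0.598) and was negative without control replicate 1. RFC4, a loader subunit, had 101, 101 and 95.7 FPKM with IFN-beta and 110, 122 and 122 FPKM in controls. It fell by 0.25 (SE 0.049, limma adjusted p = 0.00336), with no overlap. RFC5, another, had 71.9, 74.6 and 72.5 FPKM with IFN-beta and 83.7, 82.2 and 86.0 FPKM in controls, and fell by 0.20 (SE 0.037, limma adjusted p = 0.00245), also with no overlap. RFC2 and RFC3 overlapped between groups and did not pass (log2 changes of 0.00 and 0.09).

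Replication protein A, the complex that coats single-stranded DNA, had 2 subunits that fell and 1 that did not pass. The falls were 66.7% of the group, against 19.9% of all tested genes. RPA3 had 76.8, 76.0 and 78.7 FPKM with IFN-beta and 95.7, 95.7 and 105 FPKM in controls, and fell by 0.35 (SE 0.046, limma adjusted p = 3.62e-04). RPA1 had 104, 103 and 102 FPKM with IFN-beta and 123, 123 and 122 FPKM in controls, and fell by 0.25 (SE 0.032, limma adjusted p = 3.24e-04). In both genes every IFN-beta library lay below every control library, and in RPA3 control replicate 3 was the highest. RPA2 had 59.1, 59.1 and 58.0 FPKM with IFN-beta and 54.1, 54.2 and 57.2 FPKM in controls. Its values were higher in every IFN-beta library, but the log2 change of 0.09 ± 0.039 did not pass (limma adjusted p = 0.0928). It did pass after rescaling to the same sum (limma adjusted p = 0.0192) and without control replicate 3 (0.0315). The ratio of RPA2 to RPA3, likewise chosen after the values were seen, was 0.769, 0.778 and 0.737 with IFN-beta and 0.566, 0.566 and 0.543 without.

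Okazaki fragment maturation was represented by a gene that rose and a gene that fell. FEN1, the flap nuclease (chromosome 11, 61792911 to 61797238, plus strand), had 153, 154 and 164 FPKM with IFN-beta and 131, 128 and 137 FPKM in controls. The groups did not overlap, and FEN1 rose by 0.25 ± 0.043 (limma adjusted p = 0.00171). LIG1, the ligase that seals the nick FEN1 leaves, had 32.0, 32.1 and 34.0 FPKM with IFN-beta and 43.1, 39.9 and 35.2 FPKM in controls. It was lower in every IFN-beta library, with control replicate 3 near the IFN-beta range, and fell by 0.26 (SE 0.071, limma adjusted p = 0.0162). This call did not hold with no filter on level (limma adjusted p = 0.0554) or without IFN-beta replicate 1 (0.0547), IFN-beta replicate 2 (0.0533) or control replicate 2 (0.0544).

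The nucleotide genes also split. Ribonucleotide reductase makes deoxyribonucleotides and needs a large subunit, RRM1, and a small one, RRM2, whose level is known to follow S phase. RRM2 (chromosome 2, 10120698 to 10211725, plus strand) had 213, 217 and 214 FPKM with IFN-beta and 169, 172 and 179 FPKM in controls. It rose by 0.31 ± 0.036 on the log2 scale (limma adjusted p = 1.80e-04), with IFN-beta libraries well above all control libraries. RRM1 (chromosome 11, 4094707 to 4138932, plus strand) had 238, 237 and 240 FPKM with IFN-beta and 267, 283 and 309 FPKM in controls. It fell by 0.26 (SE 0.052, limma adjusted p = 0.00385), with no overlap and a wide spread among controls. The ratio of RRM2 to RRM1, also chosen after the values were seen, was 0.896, 0.917 and 0.891 with IFN-beta and 0.632, 0.610 and 0.579 without, so the subunits stood nearer to each other in FPKM in all IFN-beta libraries.

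TYMS, the synthase of thymidylate, had 62.5, 63.5 and 63.7 FPKM with IFN-beta and 72.6, 75.9 and 73.9 FPKM in controls. Its groups were apart by far more than their spread, and it fell by 0.23 (SE 0.036, limma adjusted p = 0.00110). On the other strand 46.6% of its exonic bases are shared with ENOSF1 and TYMSOS. ENOSF1 had 16.3 ± 0.641 FPKM with IFN-beta and 17.4 ± 0.471 FPKM in controls (SD, n = 3 each) and did not pass (limma adjusted p = 0.172). Use of strand in counting is not given in the sources used here, so reads of such partners cannot be told apart. UHRF1, which recognises half-methylated DNA behind the fork, had 31.0, 29.9 and 30.6 FPKM with IFN-beta and 32.4, 31.0 and 31.1 FPKM in controls. The highest IFN-beta value and the lowest control value both round to 31.0, and the gene did not pass (log2 change -0.05 ± 0.042, limma adjusted p = 0.401).

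Levels between the 40 genes depend on the length by which the authors divided. The length recovered from the FPKM steps was within 5% of the mean annotated transcript length for 29 of the 40, and between 0.28 and 1.07 of the longest transcript. PCNA and MCM4 led in FPKM, at 371 ± 8.37 and 329 ± 0.496 with IFN-beta and 361 ± 29.5 and 338 ± 4.58 in controls (SD, n = 3 each), and POLA2 was lowest at 8.27 ± 0.826 and 7.69 ± 0.119. Divided by the longest transcript instead, PCNA stood at 359 and 350 and MCM4 at 119 and 122 in IFN-beta and control libraries, so the first place held while MCM4 came level with MCM7 (118 and 122). Comparisons of 1 gene between groups are not touched by this. The 16 annotated pseudogenes named after members had at most 0.059 FPKM.

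Of 101 other genes of the same pathway, 99 were tested, 23 of which rose (23.2%, against 22.5% of all tested genes) and 24 fell (24.2%, against 19.9%). The share that rose was thus near that of all tested genes. Origin and firing genes had 2 rises and 5 falls among 16 tested (12.5% and 31.2%). DBF4B, a regulatory subunit of the CDC7 kinase, had 27.0, 29.2 and 26.1 FPKM with IFN-beta and 17.6, 16.2 and 15.4 FPKM in controls, with no overlap (log2 change 0.73 ± 0.065, limma adjusted p = 3.95e-05). CDC7 itself, the kinase that fires origins, had 17.2, 17.5 and 16.5 FPKM with IFN-beta and 21.4, 20.3 and 22.1 FPKM in controls, and fell by 0.31 (SE 0.052, limma adjusted p = 0.00145). DBF4, the other activating subunit of CDC7, had 41.8, 40 and 43.0 FPKM with IFN-beta and 45.2, 48.2 and 53.3 FPKM in controls. It fell by 0.23 (SE 0.062, limma adjusted p = 0.0162), the direction of CDC7 and not of DBF4B, and this call did not hold with no filter on level or without IFN-beta replicate 2. MCM9, a relative of the MCM ring with a role in repair, fell by 0.35 (limma adjusted p = 0.00223), and TOPBP1, a firing factor, did not pass (log2 change -0.03). Without control replicate 3 this list had 5 rises, and without IFN-beta replicate 2 or control replicate 2 it had 3 falls.

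Among 23 fork and Okazaki genes 5 rose and 7 fell (21.7% and 30.4%, against 22.5% and 19.9% of all tested genes). FAM111A, a protease that acts at the replication fork, had 54.4, 56.7 and 54.3 FPKM with IFN-beta and 41.4, 40.5 and 42.7 FPKM in controls (log2 change 0.41 ± 0.040, limma adjusted p = 7.85e-05). CLSPN, the checkpoint mediator claspin, rose by 0.34 (limma adjusted p = 6.14e-04), and RNASEH2B, a subunit of the nuclease that removes ribonucleotides from DNA, fell by 0.34 (limma adjusted p = 9.03e-04). POLE3, an accessory subunit of polymerase epsilon, did not pass (log2 change -0.04). Leaving out IFN-beta replicate 1, IFN-beta replicate 3 or control replicate 2 left 3 rises in this list.

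The nucleotide pool list had 2 rises and 4 falls among 12 genes (16.7% and 33.3%, against 22.5% and 19.9% of all tested genes). SAMHD1, which breaks down deoxyribonucleotides and is a known interferon-induced gene, had 343, 344 and 337 FPKM with IFN-beta and 53.6, 51.3 and 51.0 FPKM in controls. This 6.51-fold rise (log2 change 2.70 ± 0.036, limma adjusted p = 8.51e-11) was far larger than that of any of the 40 genes. CTPS1, the synthase of CTP, rose by 0.42 (limma adjusted p = 1.63e-04), and SHMT2, a mitochondrial folate enzyme, did not pass (log2 change -0.06).

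**Figure D4:**
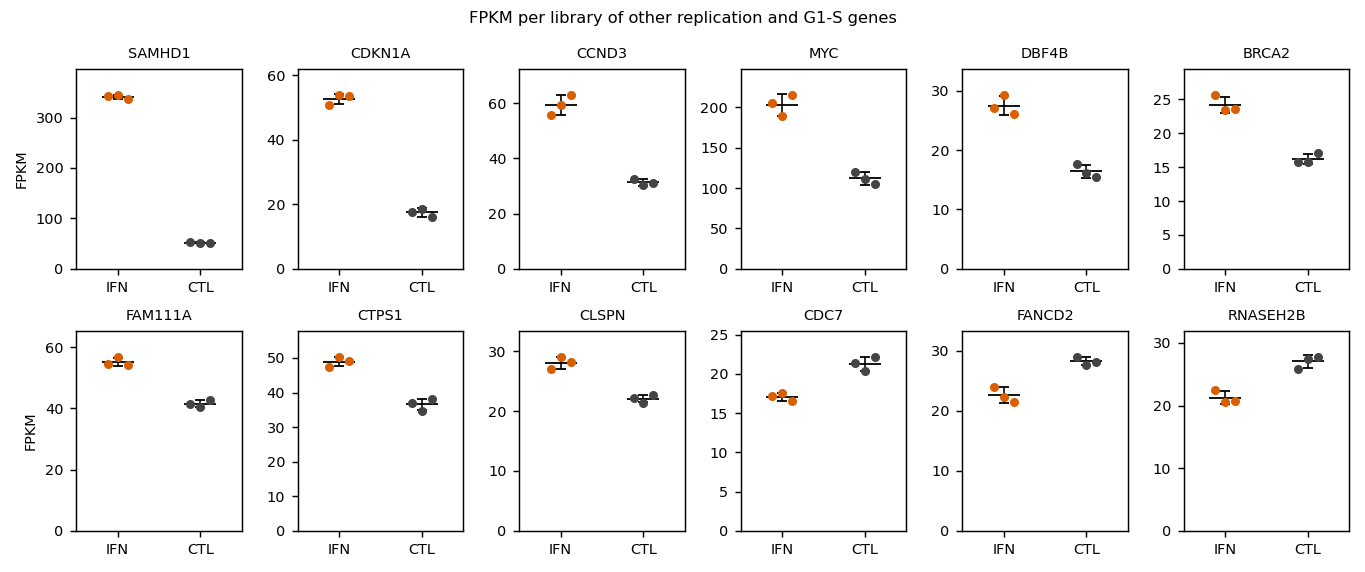
FPKM in each library (points) with the group mean and SD (bars), IFN-beta left and control right, for 12 called genes of the other pathway lists; each panel has its own vertical axis from 0. SAMHD1 shows the widest gap (341 ± 4.10 against 52.0 ± 1.43 FPKM), CDC7, FANCD2 and RNASEH2B are lower with IFN-beta, and no panel has overlapping groups.

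The other G1-S regulators had 10 rises and 5 falls among 32 genes (31.2% and 15.6%, against 22.5% and 19.9% of all tested genes). CDKN1A, an inhibitor of cyclin-dependent kinases, had 50.8, 53.8 and 53.5 FPKM with IFN-beta and 17.6, 18.7 and 16.1 FPKM in controls (log2 change 1.57 ± 0.059, limma adjusted p = 1.29e-07). CCND3, a D-type cyclin, had 55.7, 59.2 and 62.8 FPKM with IFN-beta and 32.6, 30.4 and 30.9 FPKM in controls (log2 change 0.91 ± 0.053, limma adjusted p = 2.77e-06). MYC, a growth-promoting transcription factor, had 205, 189 and 215 FPKM with IFN-beta and 120, 111 and 105 FPKM in controls (log2 change 0.85 ± 0.061, limma adjusted p = 9.59e-06). In each of these 3 genes the groups did not overlap. The 5 falls were CDKN2C, another inhibitor of cyclin-dependent kinases (log2 change -0.66, limma adjusted p = 5.69e-04), RBL2, a relative of RB (-0.43), CCNA2, the S phase cyclin A2 (-0.33), E2F8, a repressor of the E2F family (-0.28), and SKP2, a ubiquitin ligase subunit (-0.17). The SKP2 call was lost under 8 of the 16 alternatives, among them rescaling to the same sum and the replicate number as a block. CKS1B, a small partner of cyclin-dependent kinases, had the highest mean over all 6 libraries among those that did not pass (286 ± 2.69 with IFN-beta and 291 ± 20.4 FPKM in controls, SD, n = 3 each).

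Among 16 chromatin and repair genes tied to replication, 4 rose and 3 fell. These shares, 25% and 18.8%, were near those of all tested genes (22.5% and 19.9%). BRCA2, which acts in repair by homologous recombination, had 25.6, 23.5 and 23.6 FPKM with IFN-beta and 15.8, 15.8 and 17.1 FPKM in controls (log2 change 0.56 ± 0.056, limma adjusted p = 7.64e-05). FANCD2, a Fanconi anaemia protein that acts in crosslink repair, fell by 0.32 (limma adjusted p = 0.00136). NASP, a histone chaperone, did not pass (log2 change 0.09, limma adjusted p = 0.0657) but did after rescaling to the same sum (limma adjusted p = 0.0149) and without control replicate 1 (0.0434). After that rescaling 7 genes of the list rose.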

How the data were processed

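Per the labels' protocols, total RNA of HaCaT cells went into the libraries. RNA was taken with RNeasy columns by the extraction protocol and with TRIzol by the treatment protocol, and CLC Genomics Workbench 11.0.1 is listed for no named step. Aligner, counting program and use of strand were not given in the sources used here. The submitters' processing notes name the mouse builds GRCm38 and mm10, whereas the table's 60671 identifiers are human Ensembl ones. All 40 members were found in GENCODE release 29 (GRCh38), 16 with identical start and end, so gene coordinates are printed as deposited with the build inferred. The authors deposited 1 table of FPKM values, whose 6 columns were matched to samples by title, and no other per-sample column was present.

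The 40 genes and the other lists were chosen with earlier results of these data known. A two-sided limma test (lmFit, then eBayes with a variance trend; limma 3.58.1, R 4.3.3) was run on log2(FPKM + 0.5). It covered the 15163 genes whose mean reached 0.5 FPKM, with Benjamini-Hochberg adjustment over all of them and a threshold of 0.05. Adding 0.5 makes changes of low genes look smaller. Per-library values are given for called members among the 3 largest changes of each role and for the most abundant member that did not pass. From other lists up to 3 called genes and the most abundant gene that did not pass are named, and some genes that this rule covers are left out here. INTS8, NACA, ENOSF1, GMNN, ORC2 to ORC5, DBF4, RBL2, CCNA2, E2F8, SKP2 and some further members were named after their values were seen.

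Whole reads were recovered from the FPKM steps within 0.001 reads for 30506 of 30507 genes above 0 (100%). They summed to 99.72 to 99.73% of the library totals and were tested with limma voom as an alternative, which called 6874 genes against 6431. Low recovered counts may be a fraction of the true ones. The other alternatives were pseudocounts of 0.1 and 1, no filter, a mean FPKM of at least 2, rescaling to the same sum per library (TPM), quantile normalization, size factors by median of ratios, eBayes with no trend, the replicate number as a block, and each library left out in turn. The fit was also run on simulated reads, with few genes changed and the same spread set for every library. These data differ in both, so that run gives no error rate for them. Promoter windows came from RefSeq (GRCh38.p14), matched by symbol. Python 3.11.15, pandas 2.3.3, numpy 2.4.6 and matplotlib 3.10.9 made the tables and figures.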

Additional observations from a re-analysis of the deposited data

How the results depend on the processing

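Over the 16 alternatives the number of members that rose was 8 to 11 and the number that fell 13 or 14, and 20 of the 23 called members kept their call in all of them, the exceptions being MCM10, CDC45 and LIG1. No called member changed sign. The members' median log2 change was 0.021 as reported, against a spread between libraries of 0.023 (SD). It was 0.067 after rescaling to the same sum per library, -0.029 after quantile normalization and -0.006 with median-of-ratios size factors. Under those settings the median of all tested genes was 0.053, -0.050 and -0.014, against 0.01 as reported. Without 1 library at a time the members' median was 0.000 to 0.019. Among the named genes, signs changed only in some that did not pass. After quantile normalization the log2 change was -0.026 in MCM2, -0.001 in MCM3 and -0.031 in GINS1, and with size factors -0.014 in GINS1. Rescaling to the same sum gave 0.003 in MCM4, 0.041 in RFC2, 0.013 in TOPBP1, 0.010 in POLE3 and 0.021 in CKS1B. With 1 library left out the log2 change ran from -0.005 to 0.071 in MCM2, -0.022 to 0.053 in GINS1, -0.012 to 0.103 in PCNA, -0.031 to 0.015 in RFC2 and -0.068 to 0.030 in CKS1B. The causes were not tested.

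Same-numbered libraries of the groups did not deviate together from their group means (r = -0.052, -0.098 and -0.058), so the numbers were not taken to pair them. With the replicate number as a block, 8 members rose and 14 fell, and MCM10 lost its call (limma adjusted p = 0.0511). The list of origin and firing genes had 4 rises after rescaling to the same sum, and 3 falls there and with no filter on level.

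The experiment has 3 libraries a group of 1 line at 1 time and dose, and RNA levels say nothing of protein or of the share of cells in S phase. Strand is not known for the counting, and 6 members share over 20% of their exonic bases with other genes.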
